A study of Homo sapiens with 10 samples.

Results

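Megakaryocytes and the platelets they release respond to thrombin, nucleotides and adrenaline through a small set of surface receptors. The genes described here are 10: the protease-activated receptors F2R, F2RL1, F2RL2 and F2RL3, the purine receptors P2RX1, P2RY1 and P2RY12, the adrenergic receptor ADRA2A, and the G protein alpha subunits GNAQ and GNAI2. They were chosen by name and not by a rule on their measured values, though earlier results of these data were known. Every probe other than a control whose RefSeq accession carried one of these symbols was taken, which gave 12 of the 42405 probes of the array. P2RY1 had 3 probes and every other gene had 1. The 10 genes compare with 35267 symbols or names on the array as a whole. RNA came from MEG-01, a human megakaryoblastic leukemia cell line, so each value describes 1 transformed line and not megakaryocytes from a donor. In each of 5 cultures the cells were nucleofected with 200 nM of a precursor of miR-1225-3p, a microRNA found in platelets, and in each of 5 others with 200 nM of a scrambled negative control precursor. RNA was taken after 24 hours, the labels name no other agent, and both groups went through nucleofection. One label calls the scrambled cells untreated, but their titles and the methods describe the control precursor. The question was which transcripts differ when the level of this microRNA is raised, and the level of the microRNA itself was not analysed here.

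Protease-activated receptors are cut by thrombin or other proteases, and the new end of the receptor then binds the receptor itself. F2R (PAR1) and F2RL3 (PAR4) are the thrombin receptors of human platelets and couple to Gq, while P2RY1 couples to Gq and P2RY12 and ADRA2A couple to Gi. Gq activates phospholipase C and raises calcium, Gi lowers cyclic AMP and releases subunits that act on phosphatidylinositol 3-kinase, and P2RX1 is itself an ATP-gated cation channel. These arms converge on integrin activation and aggregation.

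The transfected microRNA is shown because its seed, bases 2 to 8 of the mature strand and set in capitals, is what a microRNA pairs with in most of its targets. RefSeq places it at chr16:2090195-2090216 on the minus strand (GRCh38.p14), within the gene PKD1.
hsa-miR-1225-3p: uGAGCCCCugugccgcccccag
The mature strand is 22 bases long, 17 of them G or C, and 1 of 2545 mature microRNAs in the RefSeq table carries this seed. Matches to it in the receptor transcripts were not tested, since no transcript sequence was used here.

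P2RY1 and P2RY12, the pair of ADP receptors of platelets, both lie on chromosome 3, and their promoters are shown because P2RY1 was well above background on all 10 arrays and P2RY12 on 1. Each sequence is the 250 bases before the RefSeq transcript start (GRCh38.p14), for P2RY1 at chr3:152834881-152835130 on the plus strand and for P2RY12 at chr3:151384754-151385003 on the minus strand. Capitals mark matches to 3 motifs searched on both strands, the GC box GGGCGG, the ETS core AGGAAG and the GATA core AGATAA, and these letters do not overlap each other.
P2RY1: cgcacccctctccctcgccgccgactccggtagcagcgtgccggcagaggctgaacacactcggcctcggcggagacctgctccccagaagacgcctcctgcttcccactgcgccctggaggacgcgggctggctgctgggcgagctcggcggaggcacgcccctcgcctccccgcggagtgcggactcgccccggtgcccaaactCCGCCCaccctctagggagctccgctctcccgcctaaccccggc
P2RY12: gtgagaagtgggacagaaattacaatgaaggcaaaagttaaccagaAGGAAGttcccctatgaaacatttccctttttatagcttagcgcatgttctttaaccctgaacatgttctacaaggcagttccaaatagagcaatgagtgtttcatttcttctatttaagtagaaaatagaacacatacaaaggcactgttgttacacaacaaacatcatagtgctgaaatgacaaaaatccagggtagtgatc
The P2RY1 window held 1 GC box and no match to the other motifs, and 74.0% of its bases were G or C. The P2RY12 window held 1 ETS core and no match to the other motifs, and 36.8% of its bases were G or C, while the window of a second P2RY12 start in the table had 37.2%. Of 35116 windows of the table, 42.6% held a GC box, 28.7% an ETS core and 9.17% a GATA core, and the median GC content was 58.0% with quartiles of 46.4% and 68.0%. Such matches are a description of the letters and not of binding. Of the other genes, ADRA2A and F2RL1 had a GC content of 68.8%, F2RL3 of 66.8%, F2RL2 of 40.8% and the 3 starts of GNAI2 of 60.8%, 72.8% and 62.0%, so that 7 of the 10 genes matched a window.

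Values are log2 processed signals after cyclic loess normalization, a higher value meaning a brighter probe, and a probe's level is compared only with its own level on other arrays. A probe counts as well above background on an array where a share of 0.5 or more of its spots carries the scanner's flag, and it was tested where this held on at least 3 arrays of either group. On the 10 arrays, between 41.95% and 61.18% of spots were well above background and no spot was saturated. A principal component analysis of the tested probes gave a leading component with 69.8% of the variance. It placed miR-1225-3p replicates 1 to 4 between -146.9 and -57.2 and the scrambled arrays between 57.1 and 82.9, while miR-1225-3p replicate 5 lay among the scrambled arrays at 63.8. For that reason results are given with and without replicate 5. Since replicate 5 was singled out from these same values, results without it are no separate support for a difference. The arrays lay on 2 slides, each with arrays of both groups. Among megakaryocyte markers, ITGA2B, ITGB3 and PPBP were well above background on all 10 arrays, GP9 on 8, GP1BA on 4, VWF on 1 and PF4 on none. Erythroid markers (HBG1, KLF1) and myeloid markers (CD14, ELANE, MPO) were well above background on all 10 arrays, as were CD79A, CD3D, EPCAM and KRT18. COL1A1 was well above background on 6 arrays, CD3E on 4 and KRT19 on 2, and CD2, MS4A1, COL1A2 and DCN on none. Of 5 megakaryocyte markers tested, ITGA2B was lower with miR-1225-3p (log2 fold change -1.39, adjusted p = 0.0437 by limma) and the other 4 did not pass. Of the other cell type markers, EPCAM (0.90, adjusted p = 0.0156), MPO (0.80, adjusted p = 0.0172) and CD3E (1.96, adjusted p = 0.0327) were higher by limma and none was lower. CD3E was well above background on 3 miR-1225-3p arrays and 1 scrambled array. Its entry thus depended on the group in which it was higher, and its call is no separate support for a higher level. The log2 of the summed megakaryocyte marker signal was 10.22 to 11.06 on the miR-1225-3p arrays and 10.68 to 11.30 on the scrambled arrays, and the part of these markers in the receptor values was not tested. In bulk RNA, fewer cells that express a gene and less RNA per cell cannot be told apart.

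Of the 12 probes, 9 were tested, which cover 7 of the 10 genes. F2RL2, P2RY12 and ADRA2A were each well above background on 1 array and were not tested. In limma, 3 of the 9 probes had an adjusted p under 0.05 between miR-1225-3p and scrambled cells, the F2R probe and 2 of the 3 P2RY1 probes, and all 3 were lower. Over all 20648 probes tested, 35.0% were called and 18.7% were called lower, so the share of the 9 probes called, 33.3%, lay near the background. Of the 9 probes, 8 had a negative change and P2RX1 a positive one. Among the 8 is F2RL1, which entered the test only through the scrambled group, where it was higher. The median change was -0.52, against -0.09 for all probes tested. The 5 arrays of one group did not overlap the 5 of the other for 1 of the 9 probes, F2R, against 12.6% of all probes tested.

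**Figure D1:**
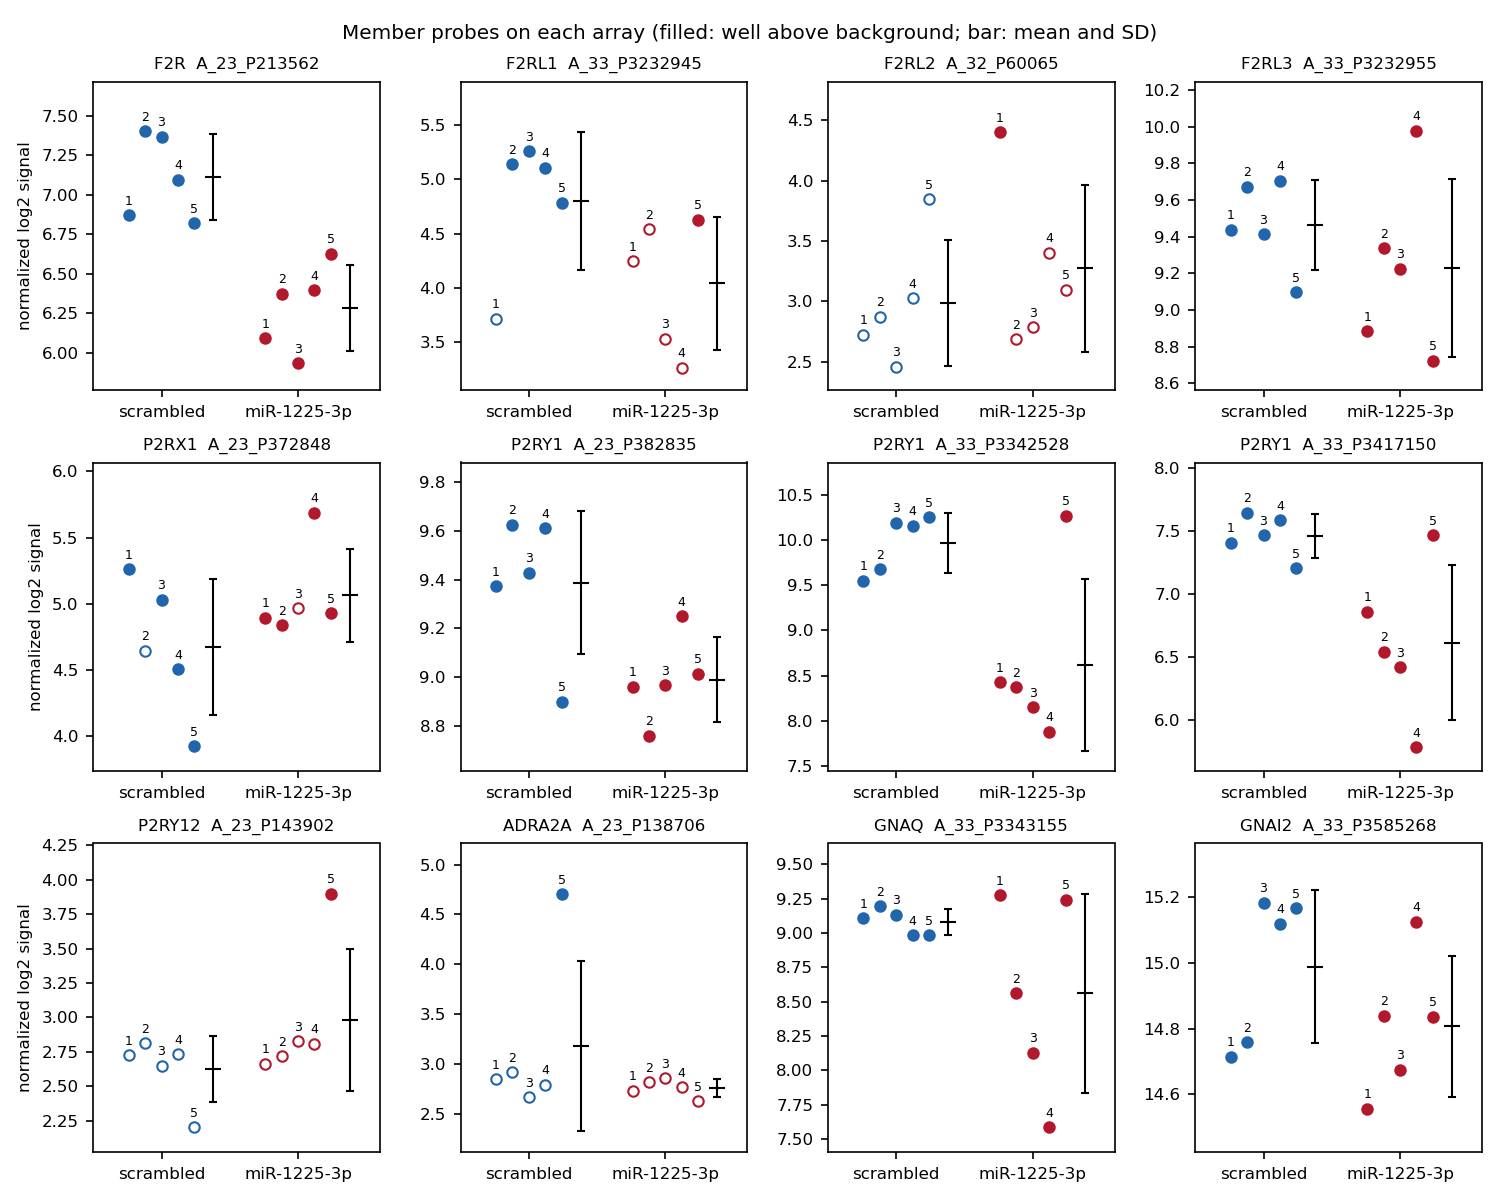
Normalized log2 signal (vertical axis, its range set for each probe) of the 12 probes on each of the 5 scrambled (blue) and 5 miR-1225-3p (red) arrays, numbered by replicate, with filled points where the probe was well above background and a bar for the mean and SD. F2R separates the groups, and in the probe A_33_P3342528 of P2RY1 miR-1225-3p replicate 5 sits at 10.27 with the scrambled arrays while the other 4 lie at 8.43 or below.

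F2R, the receptor through which low thrombin concentrations act on human platelets, was lower in the miR-1225-3p transfected cells. Its probe (A_23_P213562) read 6.09, 6.37, 5.93, 6.40 and 6.63 on miR-1225-3p replicates 1 to 5, and 6.87, 7.40, 7.37, 7.10 and 6.82 on scrambled replicates 1 to 5. Every miR-1225-3p array, replicate 5 included, lay below every scrambled array, and the nearest were miR-1225-3p replicate 5 and scrambled replicate 5. The means were 6.28 ± 0.273 and 7.11 ± 0.271 (SD, n = 5 each). The log2 fold change was -0.83 (SE 0.181, 95% interval -1.23 to -0.42, adjusted p = 0.0157 by limma), a signal at 56.4% of the scrambled level. The exact two-sided permutation test gave p = 0.00794, the smallest that 5 against 5 arrays can give. All 20 spots of this probe were well above background, and the median gap between its paired spots on an array was 0.102 on the log2 scale. On slide 1 alone, where 2 arrays were of miR-1225-3p and 3 scrambled, F2R was at -0.79 (adjusted p = 0.0654 by limma), and on slide 2 alone, with 3 and 2 arrays, it was at -0.93 (adjusted p = 0.501 by limma). With the slide as a block it was -0.86 (adjusted p = 0.0211 by limma). Leaving out any single array kept the F2R call, with log2 fold changes between -0.91 and -0.74. The change was -0.49 after normexp background correction (adjusted p = 0.0180 by limma), and without normalization between arrays it was -1.22 and the call was lost (adjusted p = 0.111 by limma).

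F2RL3, the receptor that answers high thrombin concentrations on human platelets, did not pass the test. Its probe (A_33_P3232955) read 8.88, 9.34, 9.23, 9.98 and 8.72 on the miR-1225-3p arrays and 9.44, 9.67, 9.41, 9.71 and 9.10 on the scrambled arrays. The groups overlapped, with miR-1225-3p replicate 4 above every scrambled array and replicates 1 and 5 below all of them. This gave a log2 fold change of -0.24 (95% interval -0.76 to 0.29, adjusted p = 0.437 by limma). The change was 0.10 when arrays were scaled by their 75th percentile, a setting that moved the median of all probes tested from -0.09 to 0.11. Relative to that median F2RL3 was at -0.14 as reported here and at -0.0090 under the scaling.

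F2RL1 (PAR2), cut by trypsin-like proteases and not by thrombin, was dim. Its probe (A_33_P3232945) read 4.25, 4.54, 3.53, 3.26 and 4.63 on the miR-1225-3p arrays, of which only replicate 5 was well above background. It read 3.71, 5.14, 5.26, 5.11 and 4.78 on the scrambled arrays, all but replicate 1 well above background. Scrambled replicates 2 to 5 lay above all 5 miR-1225-3p arrays, and scrambled replicate 1 lay among the lowest. The difference of the means was -0.76 (95% interval -1.56 to 0.04, adjusted p = 0.116 by limma). Without scrambled replicate 1 it was -1.03 and passed (adjusted p = 0.0457 by limma). F2RL1 reached the 3 arrays needed for testing in the scrambled group alone. Its entry thus depended on the group in which it was higher, and this pass is no separate support for a lower level. Of its 20 spots 8 were well above background.

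F2RL2 (PAR3), a thrombin-cleaved receptor best known as a cofactor for PAR4 in mouse platelets, was not measured above background here. The probe (A_32_P60065) was well above background on miR-1225-3p replicate 1 alone, at 4.40, through 1 of 20 spots. On the other 9 arrays it lay between 2.46 and 3.85. On miR-1225-3p replicate 1 its paired spots differed by 3.01 on the log2 scale. The F2RL2 gene overlaps IQGAP2 in the RefSeq annotation. F2R, F2RL1 and F2RL2 all lie on chromosome 5.

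P2RY1, the Gq-coupled ADP receptor that starts platelet shape change and the calcium rise, was lower by 2 of its 3 probes. The probe A_33_P3342528 read 8.43, 8.37, 8.15, 7.88 and 10.27 on the miR-1225-3p arrays and 9.55, 9.68, 10.19, 10.16 and 10.25 on the scrambled arrays. Replicates 1 to 4 of miR-1225-3p lay below every scrambled array, and replicate 5 was the brightest of all 10. The log2 fold change was -1.34 (SE 0.407, 95% interval -2.25 to -0.44, adjusted p = 0.0315 by limma), a signal at 39.4% of the scrambled level, and the exact two-sided permutation p was 0.0476. Without replicate 5 it was -1.76 (SE 0.194, adjusted p = 0.000142 by limma), or 29.6% of the scrambled level, and the groups no longer overlapped. Without that array 55.8% of all probes tested were called and 46.2% did not overlap.

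The probe A_33_P3417150 of P2RY1, with 1 spot on each array, read 6.86, 6.54, 6.41, 5.78 and 7.47 on the miR-1225-3p arrays and 7.41, 7.65, 7.47, 7.59 and 7.20 on the scrambled arrays. Here too replicates 1 to 4 of miR-1225-3p lay below every scrambled array and replicate 5 lay among them. The log2 fold change was -0.85 (SE 0.272, 95% interval -1.45 to -0.25, adjusted p = 0.0367 by limma, exact two-sided permutation p = 0.0238). Without replicate 5 it was -1.06 (adjusted p = 0.00232 by limma), or 47.8% of the scrambled level, where 55.8% of all probes tested were called. With the slide as a block the call was lost, at -0.86 (adjusted p = 0.0510 by limma).

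The third P2RY1 probe, A_23_P382835, read 8.96, 8.76, 8.97, 9.25 and 9.01 on the miR-1225-3p arrays and 9.37, 9.63, 9.43, 9.61 and 8.90 on the scrambled arrays. Scrambled replicates 1 to 4 lay above all 5 miR-1225-3p arrays, while scrambled replicate 5 lay above only miR-1225-3p replicate 2. On this probe miR-1225-3p replicate 5 did not stand apart from the other 4. The change of this probe was -0.40 (SE 0.168, 95% interval -0.77 to -0.03), which did not pass after adjustment (adjusted p = 0.0843 by limma). It passed without scrambled replicate 5 (-0.52, adjusted p = 0.0348 by limma) and with the slide as a block (-0.46, adjusted p = 0.0478 by limma). The probes of P2RY1 thus had changes from -1.34 to -0.40. The changes of A_33_P3342528 and A_23_P382835 differed by 0.95 (exact two-sided permutation p = 0.103, 0.179 after Benjamini-Hochberg adjustment over 3 pairs). The other pairs differed by 0.49 and 0.45, with adjusted p of 0.179 and 0.206 in the same exact permutation test. Over the 10 arrays A_33_P3342528 and A_33_P3417150 correlated at r = 0.896, and A_23_P382835 correlated with them at 0.407 and 0.498, a description in which the points share group and replicate 5. Which part of the P2RY1 transcript each probe matches was not analysed here.

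Both calls of P2RY1 were lost when most single arrays were left out, while the changes stayed negative. By the methods' unpaired test on the same values neither passed after Benjamini-Hochberg adjustment (adjusted p = 0.0564 for A_33_P3342528 and 0.0580 for A_33_P3417150). The A_33_P3342528 call was kept without miR-1225-3p replicate 5 or without scrambled replicate 1 and lost when any other array was left out, with log2 fold changes between -1.76 and -1.16. The A_33_P3417150 call was kept without miR-1225-3p replicate 5 or without scrambled replicate 5 and lost when any other was left out, with values between -1.06 and -0.64. Within slide 1, which does not hold miR-1225-3p replicate 5, A_33_P3342528 passed at -1.60 (adjusted p = 0.0180 by limma) and A_33_P3417150 was at -0.66 (adjusted p = 0.0604 by limma). Within slide 2 they were at -1.15 and -1.06 and neither passed (adjusted p = 0.505 and 0.501 by limma).

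**Figure D2:**
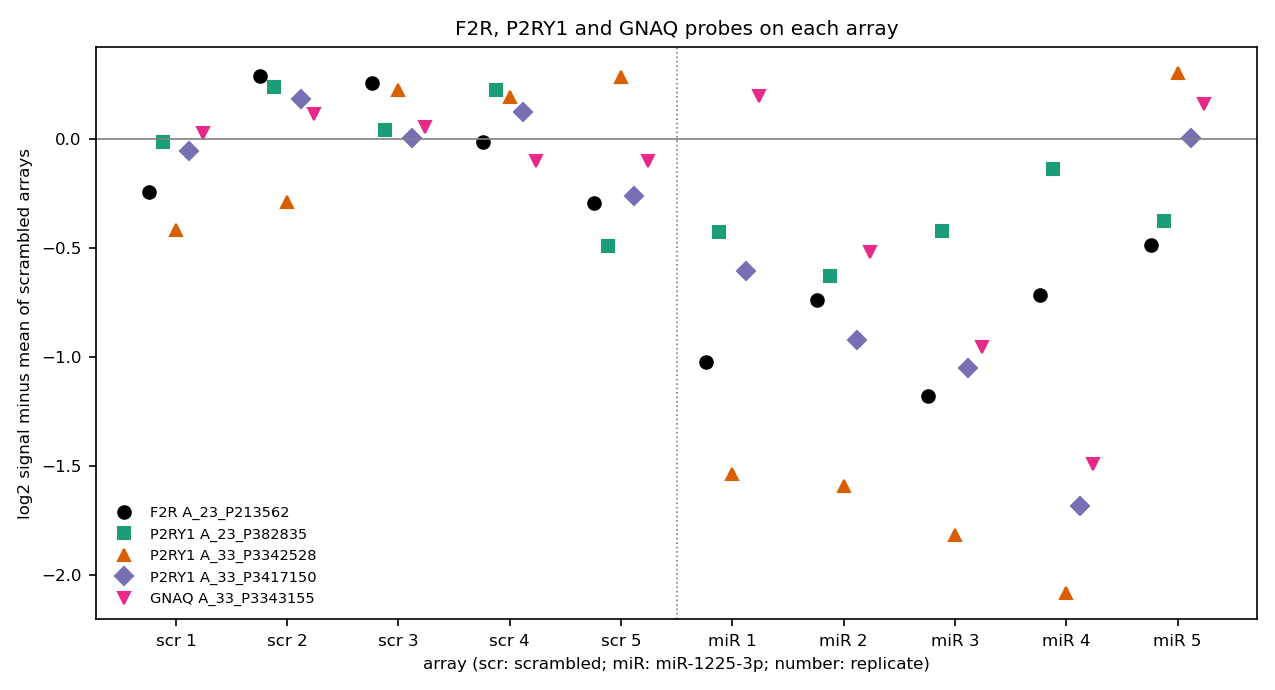
Log2 signal minus the mean of the 5 scrambled arrays (vertical axis) for the probes of F2R, P2RY1 and GNAQ on each array (horizontal axis, scr for scrambled and miR for miR-1225-3p). F2R lies below 0 on all 5 miR-1225-3p arrays. A_33_P3342528 of P2RY1 lies above 0 on miR-1225-3p replicate 5, and GNAQ on miR-1225-3p replicates 1 and 5.

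P2RX1, the ATP-gated channel of platelets, was dim and was the one probe with a positive change. It (A_23_P372848) read 4.90, 4.84, 4.97, 5.69 and 4.93 on the miR-1225-3p arrays and 5.26, 4.65, 5.03, 4.51 and 3.92 on the scrambled arrays. The groups overlapped, with miR-1225-3p replicate 4 highest and scrambled replicate 5 lowest. P2RX1 had a log2 fold change of 0.39 (95% interval -0.20 to 0.98, adjusted p = 0.254 by limma), and 12 of its 20 spots were well above background. The gap between its paired spots had a median of 0.551, larger than the change itself. Without normalization between arrays the change was -0.16, where the median of all probes tested was -0.31. Relative to that median P2RX1 was at 0.16, against 0.48 as reported here.

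P2RY12, the Gi-coupled ADP receptor that sustains aggregation and the target of clopidogrel, was at background. Its probe (A_23_P143902) read 3.90 on miR-1225-3p replicate 5, where 1 of its 2 spots was well above background. On the other 9 arrays it lay between 2.20 and 2.83. The paired spots on replicate 5 differed by 2.61 on the log2 scale. The P2RY12 gene overlaps MED12L in RefSeq. ADRA2A, the Gi-coupled receptor through which adrenaline potentiates other agonists, was at background on 9 arrays, between 2.63 and 2.92. On scrambled replicate 5 it read 4.70, with both spots well above background (A_23_P138706). No fold is given for F2RL2, P2RY12 or ADRA2A, since each group lay at the level of the dimmest measurable probes.

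The probes of the 2 alpha subunits that carry these signals each had all 20 spots well above background. GNAQ, the Gq subunit through which P2RY1 and the thrombin receptors reach phospholipase C, did not pass the test. Its probe (A_33_P3343155) read 9.28, 8.56, 8.13, 7.59 and 9.24 on the miR-1225-3p arrays and 9.11, 9.20, 9.13, 8.98 and 8.98 on the scrambled arrays. Replicates 2, 3 and 4 of miR-1225-3p lay below all scrambled arrays and replicates 1 and 5 above them, an SD of 0.727 against 0.0951. For GNAQ this gave a log2 fold change of -0.52 (95% interval -1.20 to 0.16, adjusted p = 0.192 by limma), and without replicate 5 it was -0.69 (adjusted p = 0.0677 by limma).

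GNAI2, the Gi subunit activated by P2RY12 and ADRA2A, did not pass the test either. Its probe (A_33_P3585268) read 14.56, 14.84, 14.67, 15.13 and 14.84 on the miR-1225-3p arrays and 14.71, 14.76, 15.18, 15.12 and 15.17 on the scrambled arrays. The groups overlapped across most of their range. The GNAI2 difference was -0.18 on the log2 scale (95% interval -0.54 to 0.17, adjusted p = 0.373 by limma). Its sign depended on the scaling, at 0.48 with the 75th percentile, 0.0026 with quantile normalization and 0.06 without normalization. The median of all probes tested moved with these settings, to 0.11, 0.04 and -0.31. Relative to that median GNAI2 was at -0.09 as reported here and at 0.37, -0.04 and 0.37 under them, while F2R was at -0.74, -0.90, -0.73 and -0.90.

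**Figure D3:**
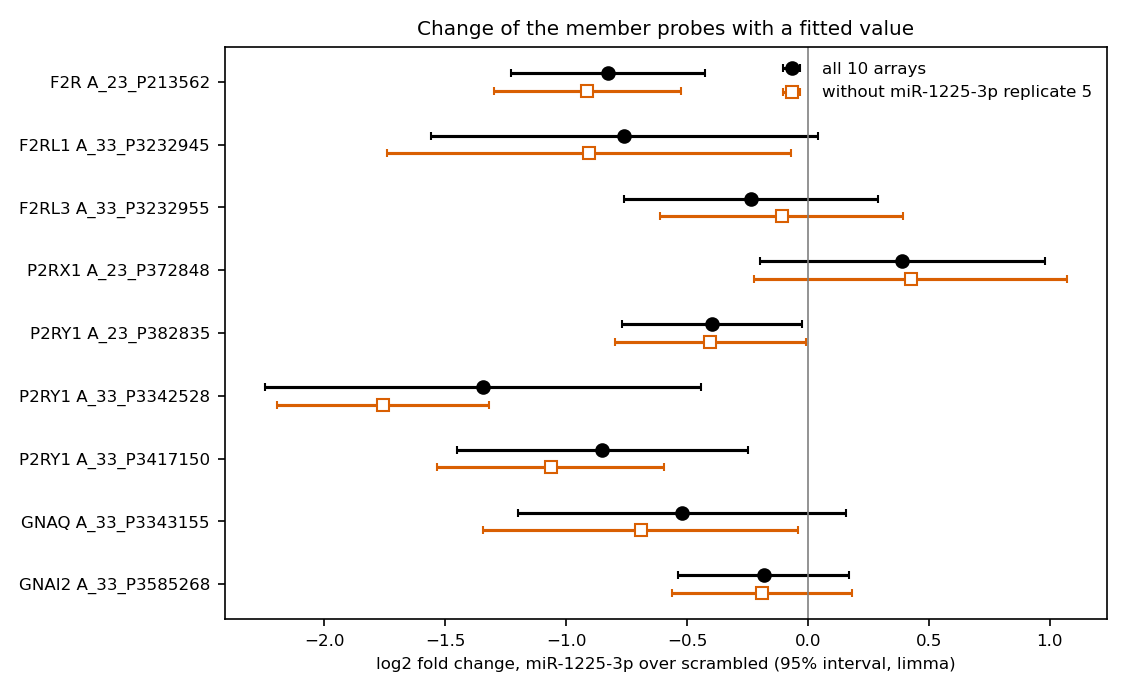
Log2 fold change of miR-1225-3p over scrambled (horizontal axis) with its 95% limma interval for the 9 probes tested, over all 10 arrays (black circles) and without miR-1225-3p replicate 5 (orange squares). The intervals of F2R and of all 3 P2RY1 probes lie below 0 in both, and the largest shift without replicate 5 is that of A_33_P3342528, from -1.34 to -1.76.

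Replicate 5 of miR-1225-3p lay within the range of the scrambled arrays for 5 of the 9 probes and above the other 4 miR-1225-3p arrays for 4 of them. Without it 55.8% of all probes tested were called and 46.2% did not overlap, and among the receptor and subunit probes the number called was again 3, those of F2R and of P2RY1 with A_33_P3342528 and A_33_P3417150.

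**Figure D4:**
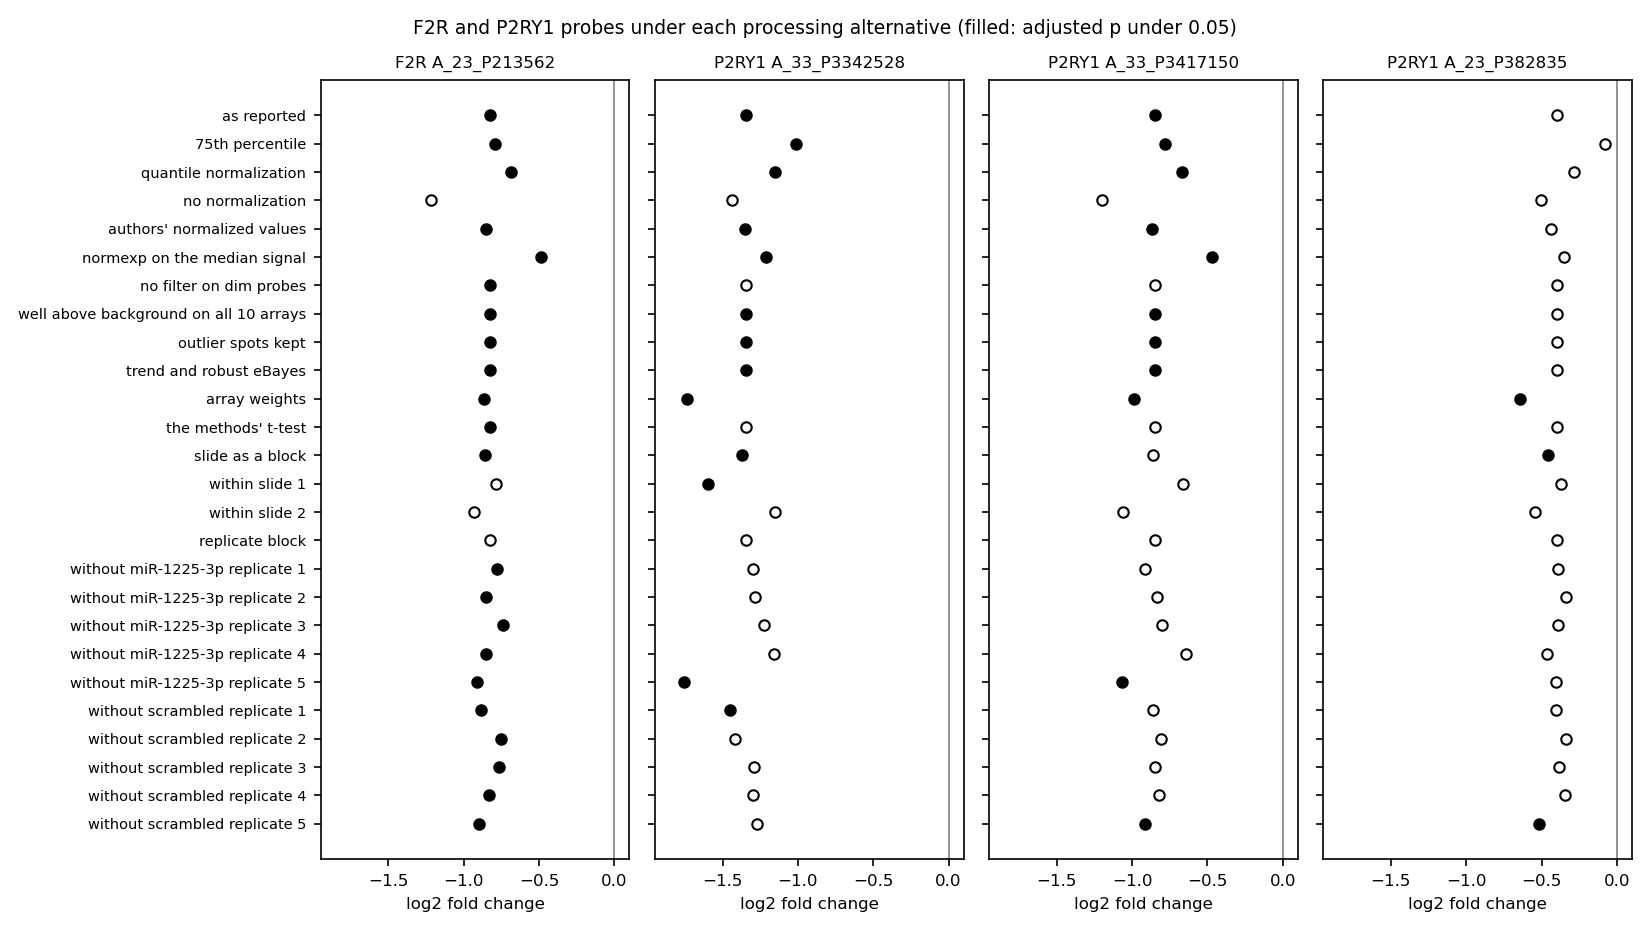
Log2 fold change (horizontal axis) of the F2R probe and the 3 P2RY1 probes as reported and under each of 25 alternative settings, filled where the adjusted p is under 0.05. F2R is filled under most settings, and all points lie below 0.

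Around these receptors, 129 other signalling genes were placed in 9 lists, and 101 of them had a probe to test. With 1 probe a gene and adjustment over 17379 genes, 16 were higher and 28 lower with miR-1225-3p, 15.8% and 27.7% of those tested, against 17.0% and 18.1% of all genes. Their median change was -0.23, against -0.06 for all genes. On the same footing 2 of the 7 genes tested among the receptors and subunits were called, F2R and P2RY1. Without miR-1225-3p replicate 5 the number of list genes called was 64, or 63.4% of those tested, against 55.4% of all genes.

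Over all genes tested 35.0% were called, 17.0% higher and 18.1% lower, which is the background for the counts in each list below. Among 6 thrombin and protease partners tested, CTSG, the neutrophil protease cathepsin G that cleaves these receptors, was higher (log2 fold change 0.86, adjusted p = 0.0136 by limma). F3, tissue factor, which starts the cascade that makes thrombin, was also higher (0.72, adjusted p = 0.0242), and 4 did not pass. Of 10 other purinergic genes, P2RY11, a receptor for ATP, was higher (1.83, adjusted p = 0.0222). ADORA2B, a Gs-coupled adenosine receptor, was lower (-1.14, adjusted p = 0.0136), as was the ATP-gated channel P2RX3 (-1.04, adjusted p = 0.0461), which was well above background on 1 miR-1225-3p and 4 scrambled arrays. None of 5 other adrenergic receptors passed in limma, and their changes lay between 0.07 and 0.66. Without miR-1225-3p replicate 5, ADRA1B passed at 0.89 (adjusted p = 0.0044 by limma), where 55.4% of all genes were called. ADRA1B was well above background on 3 miR-1225-3p and 2 scrambled arrays, so its entry depended on the group in which it was higher. Of 6 receptors for other platelet agonists and inhibitors, PTAFR, the receptor for platelet-activating factor, was lower (-2.36, adjusted p = 0.0213), as was the lysophosphatidic acid receptor LPAR5 (-1.38, adjusted p = 0.0268), which was well above background on 1 and 3 arrays.

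Downstream of Gq, 18 genes were tested, 6 lower and 3 higher, with a median change of -0.38. Over all genes tested 18.1% were lower and 17.0% higher. GNA11, the closest relative of GNAQ, was lower (-2.29, adjusted p = 0.0149 by limma) and was well above background on 2 miR-1225-3p and 5 scrambled arrays. FERMT3, the integrin activator kindlin-3, was lower (-2.08, adjusted p = 0.0282), as was the phospholipase PLCB3 (-1.88, adjusted p = 0.0156). In the arm of GNA12 and GNA13, 3 of 10 were lower and none higher, where 35.0% of all genes were called in either direction. These were the exchange factors ARHGEF1 (-1.77, adjusted p = 0.0206) and ARHGEF11 (-1.31, adjusted p = 0.0162) and the alpha subunit GNA12 (-0.85, adjusted p = 0.0155). ARHGEF1 and PLCB3 were each well above background on 1 miR-1225-3p and 4 scrambled arrays and ARHGEF11 on 2 and 4, so these changes start from dim signals. Like GNA11, P2RX3 and LPAR5, they reached the 3 arrays needed for testing in the scrambled group alone. Their entry thus depended on the group in which they were higher, and their calls are no separate support for a lower level.

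Of 21 genes of the Gi, cyclic AMP and phosphatidylinositol 3-kinase arm, 6 were higher and 7 lower, against 17.0% and 18.1% of all genes. PIK3R5, a regulatory subunit of the kinase that beta-gamma subunits activate, was higher (3.07, adjusted p = 0.0141 by limma). PRKACA, the catalytic subunit of protein kinase A, was lower (-2.33, adjusted p = 0.0204), as was the adenylyl cyclase ADCY6 (-2.10, adjusted p = 0.0315). Of 13 beta and gamma subunits, GNB2 (-2.60, adjusted p = 0.0244) and GNB1 (-0.80, adjusted p = 0.0432) were lower and 11 did not pass. Without miR-1225-3p replicate 5, 8 were called, where 55.4% of all genes were called. Those added were GNG2, GNG10 and GNG11, which were higher, and GNB3, GNG4 and GNG5, which were lower.

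Of 12 regulators that end or assist receptor signalling, 10 were called, 6 lower and 4 higher, where 35.0% of all genes were called. This was the largest share among the lists, singled out after the values were seen. RGS3, which speeds GTP hydrolysis on alpha subunits, was lower (-2.88, adjusted p = 0.0263 by limma), as was the chaperone of alpha subunits RIC8A (-1.71, adjusted p = 0.0188). RGS1 was higher (1.33, adjusted p = 0.00631). The other 3 regulators that were higher, named after their values were seen, were RGS2 (1.02, adjusted p = 0.0136), RGS18 (0.94, adjusted p = 0.0136) and RGS10 (0.61, adjusted p = 0.0187). RGS16 was lower (-0.51, adjusted p = 0.0233), as was the arrestin ARRB2 (-1.24, adjusted p = 0.0167). The receptor kinases GRK2 (-0.68, adjusted p = 0.0184) and GRK6 (-0.50, adjusted p = 0.0469) were also lower, and RGS14 and RGS19 did not pass.

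**Figure D5:**
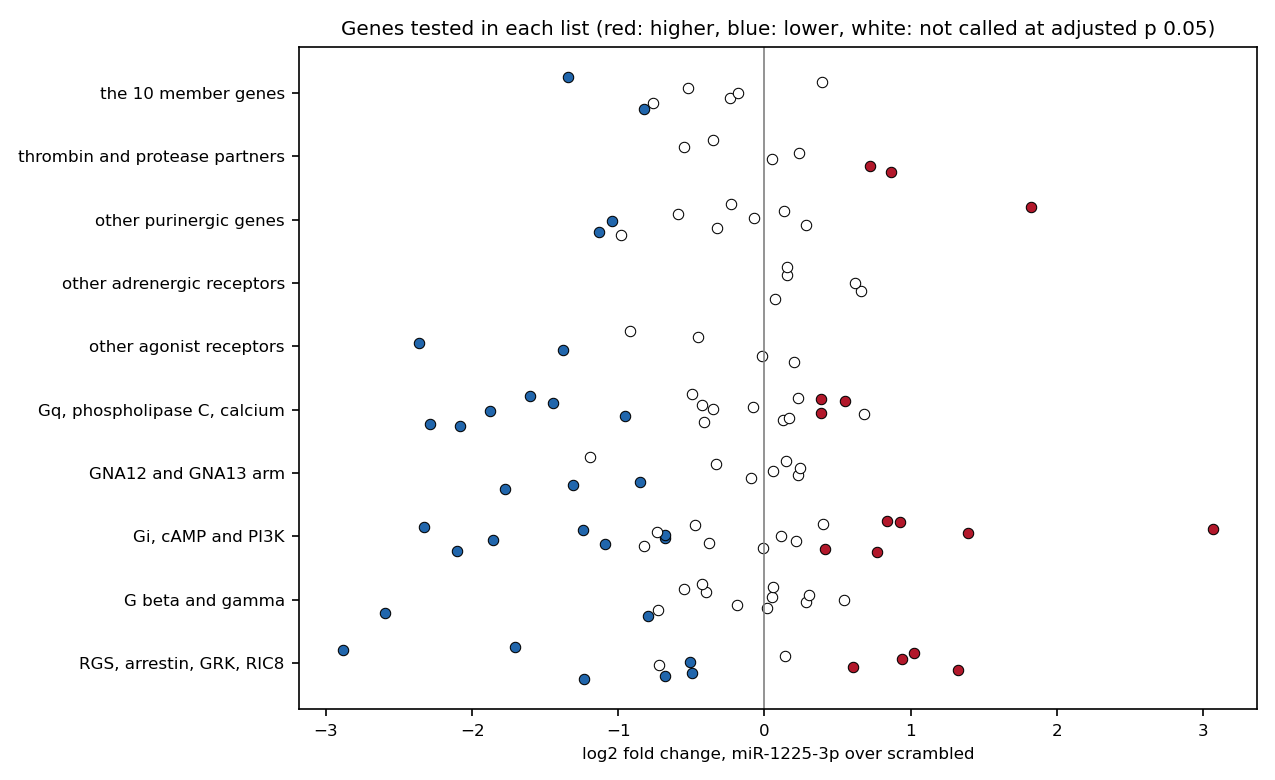
Log2 fold change of miR-1225-3p over scrambled (horizontal axis) for each gene tested, by list, red for higher, blue for lower and white for not called at an adjusted p of 0.05. The values are over all 10 arrays. The regulators fall on both sides of 0, and the called genes of the GNA12 and GNA13 list and of the beta and gamma subunits all lie below 0.

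The genes whose pattern over the 10 arrays was most like that of a receptor or subunit were found by Pearson correlation with the brightest probe of each other gene. For F2R they were LAPTM4B (r = 0.982) and PPCS (r = 0.978), for P2RY1 with A_33_P3342528 MOAP1 and SRP68 (r = 0.995 each), and for F2RL3 LINGO2 (r = 0.989) and SLC12A9 (r = 0.988). For GNAQ they were CXCL8 (r = 0.996) and XPOT (r = 0.991), and for GNAI2 FAM32A (r = 0.964) and TSNAX (r = 0.947). The arrays share their group and, for P2RY1 and GNAQ, the place of replicate 5, so these are descriptions of 10 points chosen from many genes.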

How the data were processed

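Total RNA of the 10 cultures was labelled with Cy3 and hybridized to Agilent SurePrint G3 Human arrays. For each array the authors deposited the output of Agilent Feature Extraction 10.7.3.1, per the submitters' processing notes. The processed signal in these files is, as deposited, an intensity from which the software had subtracted background. The authors also deposited log2 values that they had normalized, for 29271 probes, and these correlated with the values here at 0.981 to 0.998 per array. The methods name another software version. Probes were named through RefSeq accessions (GRCh38.p14 table), which gave a symbol to 24910 of 42405 probes. The array's header names an older build, so no coordinates of genes or probes are given, and those of the printed sequences are RefSeq's.

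Control spots (4259 per array) were dropped, and the log2 processed signals of the other 58717 spots were normalized by cyclic loess in limma 3.58.1 under R 4.3.3, with the fast method and 3 iterations. Outlier-flagged spots, of which there were none on the probes described, were treated as missing before the spots of each probe were averaged. A probe entered the limma fit (lmFit, then eBayes) if it was well above background on 3 or more arrays of a group. Benjamini-Hochberg adjustment ran over 20648 probes at a threshold of 0.05, or over 17379 genes by their brightest probe for the signalling lists. Single probes also had an exact two-sided permutation test. The number of arrays limits the precision.

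The genes and lists were chosen with earlier results of these data known. All 10 genes are named, of each list the 3 called genes of largest change, and the 2 genes most correlated with each gene that had a probe well above background on all arrays. The other regulators tested were named after their values were seen. Alternatives covered normalization, the deposited log2 values, normexp with an offset of 50 (on the median signal, the foreground column in the files), filters, outlier spots, the test, slide, replicate number and leaving out each array. Some markers are not reported here. The scripts were tested on simulated data. Signals were not expressed against the geometric mean of controls, a step the methods name.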

Additional observations from a re-analysis of the deposited data

Results flagged for a closer look

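Among 24 groups of 5 arrays, 2 for each of the 12 probes, 5 held an array whose gap to its nearest neighbour was large for the range of its group, where chance gives about 1.2. The first 2 were on tested probes. P2RX1 read 5.69 on miR-1225-3p replicate 4, against 4.97 on the next array of its group. P2RY1 (A_33_P3342528) read 10.27 on miR-1225-3p replicate 5, against 8.43 on the next, and on this array the principal component also placed the sample among the scrambled arrays. The others were on probes not tested. P2RY12, near background, read 3.90 on miR-1225-3p replicate 5 and 2.20 on scrambled replicate 5, and ADRA2A read 4.70 on scrambled replicate 5, where both of its spots were well above background, against 2.92 on the next array of its group. On scrambled replicate 5 the share of spots well above background, 61.18%, was the highest of the 10 arrays. The cause of these values was not tested.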

How the results depend on the processing

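Receptor probes are here taken to include those of the subunits GNAQ and GNAI2. Of 7225 probes called in all, 3 receptor probes and 44 list genes, array weights gave 13990, 7 and 71, and no normalization gave 1224, 0 and 14. Without a filter 4025 probes and 1 receptor probe (F2R) were called. Within slide 1, 1 receptor probe was called (A_33_P3342528 of P2RY1), and by the methods' t-test, with adjustment, 1 (F2R). Within slide 2 limma called 0 probes, 0 receptor probes and 0 list genes, where 1395, 2 and 11 had an unadjusted p under 0.05. Leaving out 1 array gave 2280 to 11524 probes, 1 to 3 receptor probes and 20 to 64 list genes, the highest probe count without miR-1225-3p replicate 5 and the lowest without miR-1225-3p replicate 2.

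The labels do not say whether cultures of the same replicate number were made together. Same-numbered arrays correlated between -0.401 and 0.0586 after group means were removed, which shows no likeness of such pairs but cannot settle how they were made. With the replicate block limma called 0 probes, 0 receptor probes and 0 list genes, where 8994, 3 and 52 had an unadjusted p under 0.05, and F2R stood at -0.83 with an adjusted p of 0.0512.

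F2R passed under 22 of 26 alternatives, and A_33_P3342528, A_33_P3417150 and A_23_P382835 of P2RY1 under 13 of 26, 10 of 25 and 3 of 25, all with a negative sign. Values on the other side of 0 came for F2RL3 (0.10 with the 75th percentile), GNAI2 (0.48 with the 75th percentile, 0.060 without normalization, 0.0026 with quantile normalization) and P2RX1 (-0.16 without normalization), none of which passed. Relative to the median of all probes under the same setting, F2RL3 (-0.0090) and P2RX1 (0.16) kept their sign, and GNAI2 was at 0.37, 0.37 and -0.04. GNAI2, GNAQ and F2RL1 passed with array weights, F2RL1 having entered the test through the scrambled group alone. Of all probes called, 53.6% were lower, against 38.9% with the 75th percentile, 42.6% with quantile normalization and 85.8% without normalization. The cause of these shifts was not tested. Signals near background limit F2RL1 and P2RX1.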
